A study of Mus musculus with 6 samples.

Results

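Inhibitory checkpoint receptors are surface proteins that lower T cell activation when they meet their ligands, and they were described here as 8 receptor genes together with the ligand gene Cd200 and with Tox. The genes were taken by symbol as a set of 10: Pdcd1, Lag3, Havcr2, Tigit, Ctla4, Cd244a, Cd160, Btla, Cd200 and Tox. All 10 were found among the 19938 genes of the arrays, each with 1 probe set. RNA had been measured on 6 Affymetrix gene-level mouse arrays, 3 of wild-type mice (Roquin+/+) and 3 of sanroque mice (Roquinsan/san). Sanroque mice are homozygous for a point mutation of Roquin, an RNA-binding repressor encoded by Rc3h1. The mutation is carried in the germline, so it is not limited to T cells. All mice were 10 weeks old and on the C57BL/6 background, and CD44-low CD8+ T cells were sorted from their spleens and lymph nodes, with no treatment named. The labels call the arrays of a genotype biological replicates. CD44 rises on activated and memory T cells, so this gate takes mainly cells of naive surface type.

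T cells that have met antigen place checkpoint receptors on their surface, and several of these receptors remain high together on T cells under chronic stimulation, a state called exhaustion. Some of them recruit phosphatases through tyrosine motifs in the cytoplasmic tail, whereas CTLA-4 removes the ligands that CD28 needs. Tox is a nuclear DNA-binding protein that is required for the exhausted state in CD8+ T cells. The comparison asks how the RNA of these genes differed between the genotypes in cells sorted as CD44-low.

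Some arrays stood apart before any checkpoint gene was considered. Sanroque replicate 1 was the only array with high Xist, at 11.20 on the log2 intensity scale against 4.02 to 4.17 on the other 5, and its Y-linked Eif2s3y read 4.26 against 9.77 to 10.19. These genes read as in a female mouse on that array and as in male mice on the other 5. By them, sex was not shared by the sanroque arrays. Values without sanroque replicate 1 follow the results on the 10 genes and on their related genes. Wild type replicate 2 had a summed B cell marker intensity of 5580, against 2604 and 2215 on the other wild-type arrays. Rc3h1 had a log2 fold of 0.14 ± 0.10 (SE), and because the allele is a point mutation its level does not check the labels. The coreceptor gene Cd8a read between 12.99 and 13.05 on all 6 arrays. Array medians lay between 5.74 and 5.83 on the log2 scale, and a level below that range may hold mostly background, so that folds from there may understate a change. Cd44, the gene of the sort marker, read 5.98 to 6.43 in wild type and 7.34 to 7.90 in sanroque.

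Ctla4 and Cd244a rose in sanroque cells, and these were the only 2 of the 10 genes past the test. Ctla4 was 4.38-fold and Cd244a 2.95-fold higher. Pdcd1, Tigit, Lag3 and Havcr2 had mean differences of 4.91-fold, 2.94-fold, 2.66-fold and 2.07-fold and did not pass. In each of these 4 genes all 3 sanroque arrays read above all 3 wild-type arrays, but sanroque replicate 2 stood far above the other sanroque arrays. Btla was separated by a small margin, and Tox, Cd160 and Cd200 overlapped between the genotypes.

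The test was limma on log2 intensities, two-sided and fitted across all 19938 genes. Its p-values were adjusted over those genes by the Benjamini-Hochberg method, and an adjusted p under 0.05 made a call. Calls were made in 5.77% of all genes, 3.26% higher and 2.51% lower. Among the 10 checkpoint genes 2 were called higher and 0 lower, with 7 higher and 0 lower at an unadjusted p below 0.05 by limma, the only tool run. At that unadjusted threshold 8.16% of all genes were higher and 10.7% lower, which is the background for each unadjusted count given for a list. The 3 sanroque values lay entirely above the 3 wild-type values in 7 of the 10 genes, where this was so in 9.46% of all genes. At least a 2-fold difference was seen in 6 of the 10, against 1.45% of all genes. The median log2 fold of the 10 was 1.23, and that of all genes was -0.03. With RNA from many cells on each array, more cells that express a gene and more RNA per cell cannot be told apart.

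**Figure D1:**
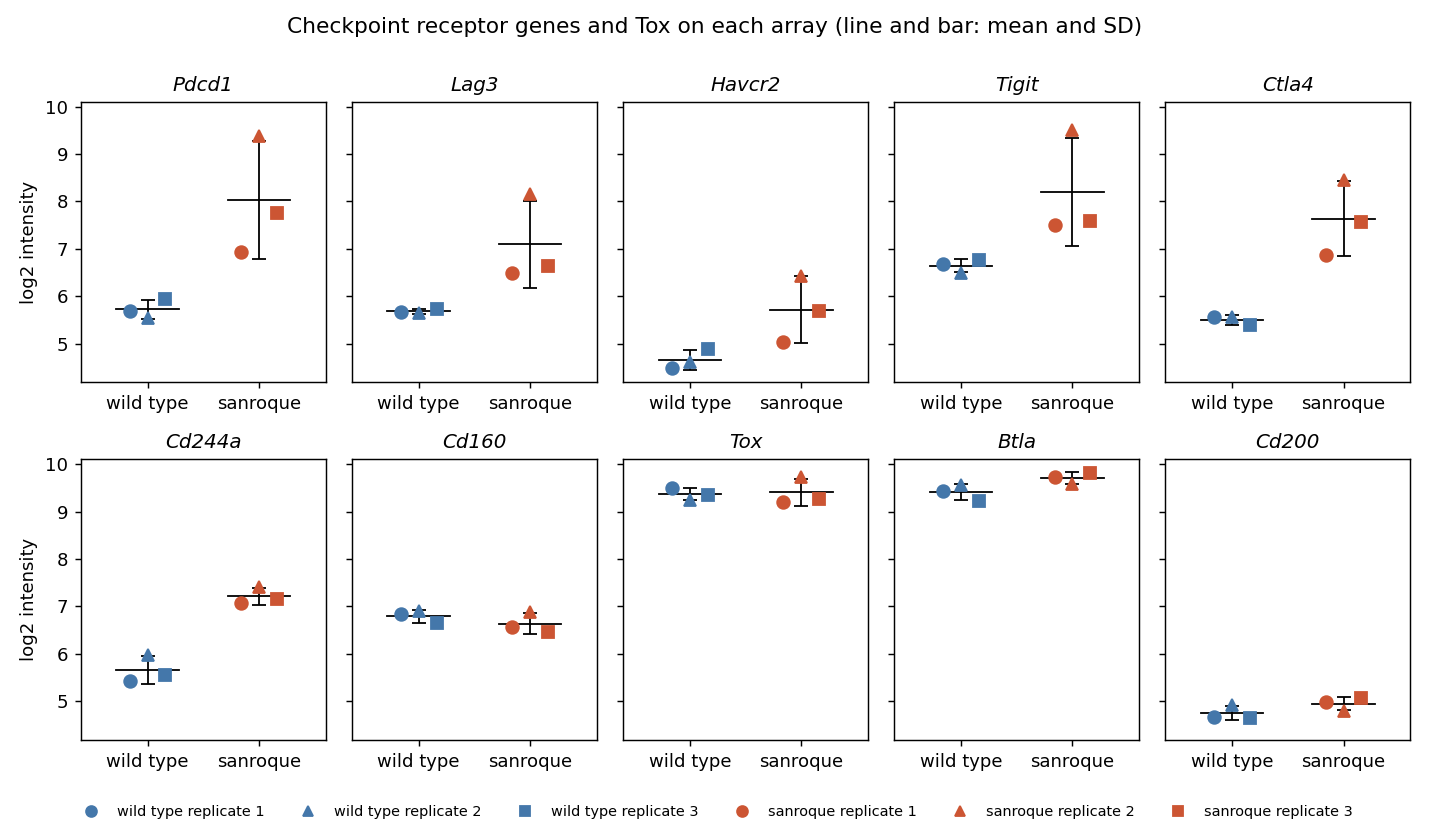
Log2 intensity (y axis) of each of the 10 genes on each array, with 1 panel per gene, wild type in blue, sanroque in orange, marker shapes for the replicate numbers, and the mean and SD in black (n = 3 each). Sanroque replicate 2 is the top point in Pdcd1, Tigit, Lag3, Ctla4 and Havcr2, while Cd244a has 3 close sanroque points between 7.08 and 7.42. Levels of different genes come from different probe sets and are not comparable.

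Ctla4 encodes CTLA-4, which competes with the costimulatory receptor CD28 for CD80 and CD86. It read 5.56, 5.57 and 5.38 on wild type replicates 1 to 3 and 6.87, 8.46 and 7.57 on sanroque replicates 1 to 3. The lowest sanroque array was thus above the highest wild-type array by more than the whole wild-type range. The log2 fold was 2.13 ± 0.35 (SE; 95% confidence interval 1.31 to 2.95; adjusted p from limma = 0.0197). The call was lost without any 1 of the wild-type arrays, with adjusted p-values of 0.0927, 0.0644 and 0.0559 without replicates 1, 2 and 3, although the log2 fold stayed between 2.07 and 2.16 there. It held without each of the sanroque arrays. The wild-type values lay below the array median. Regulatory and CD4 T cells express much Ctla4, and of 10 of their marker genes 3 rose (Ikzf2, Il2ra and Zbtb7b) and 1 fell (Tnfrsf18), with a median log2 fold of 0.32 and with 6 of the 10 separated higher. Their summed intensity, in which the bright Tnfrsf18 weighs most, was 1.09-fold higher, and the part of such cells in the Ctla4 difference was not tested.

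Cd244a encodes 2B4, a SLAM family receptor for CD48 that is found on NK cells, some myeloid cells and antigen-experienced CD8+ T cells. It read 5.42, 5.98 and 5.56 on the wild-type arrays and 7.08, 7.42 and 7.16 on the sanroque arrays. The sanroque arrays were close to each other, and the highest wild-type value was that of replicate 2. The log2 fold was 1.56 ± 0.16 (SE; 95% confidence interval 1.19 to 1.93; adjusted p from limma = 0.00388). Leaving out any 1 array gave log2 folds of 1.45 to 1.72 and adjusted p-values of 0.00291 to 0.0242. This was the only gene of the 10 that stayed called without each array in turn. On the same arrays the summed markers of myeloid and NK cells were on average 7.31-fold and 2.22-fold higher in sanroque. Eomes, which these CD8+ cells may express, weighs most in the NK sum, and Tyrobp is in both lists. The part of myeloid and NK cells in the Cd244a difference was not tested.

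The promoter windows of these genes and of Pdcd1 are printed to show the DNA at the start of the 2 genes that rose and of the gene with the largest mean difference. They are RefSeq windows of build GRCm38.p6, from 250 bases before to 50 bases after the gene's start, written 5′ to 3′ on the gene's strand. The table held windows for 8 of the 10 genes, all but Lag3 and Tox. Capitals mark 3 short motifs on either strand that transcription factors of activated T cells are known to bind: GGAAA (the NFAT core, which shares its first letters with the ETS core), TGANTCA (AP-1) and TGNGGT (RUNX). Among all 32851 windows 61.3% hold GGAAA, 7.81% TGANTCA and 45.8% TGNGGT.
Ctla4, chr1:60908775-60909074, plus strand: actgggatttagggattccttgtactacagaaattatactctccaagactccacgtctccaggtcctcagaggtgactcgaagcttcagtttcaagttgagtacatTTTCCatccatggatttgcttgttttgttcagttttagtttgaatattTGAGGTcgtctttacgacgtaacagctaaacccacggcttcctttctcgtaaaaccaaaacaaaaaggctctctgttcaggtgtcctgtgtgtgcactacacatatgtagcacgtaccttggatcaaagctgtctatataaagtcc
Cd244a, chr1:171558943-171559242, plus strand: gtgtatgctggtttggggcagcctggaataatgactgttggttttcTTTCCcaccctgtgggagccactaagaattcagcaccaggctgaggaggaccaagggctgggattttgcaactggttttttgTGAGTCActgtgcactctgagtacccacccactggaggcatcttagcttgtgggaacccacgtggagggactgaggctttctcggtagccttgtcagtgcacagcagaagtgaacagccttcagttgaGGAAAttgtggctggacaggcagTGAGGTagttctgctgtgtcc
Pdcd1, chr1:94052504-94052803, minus strand: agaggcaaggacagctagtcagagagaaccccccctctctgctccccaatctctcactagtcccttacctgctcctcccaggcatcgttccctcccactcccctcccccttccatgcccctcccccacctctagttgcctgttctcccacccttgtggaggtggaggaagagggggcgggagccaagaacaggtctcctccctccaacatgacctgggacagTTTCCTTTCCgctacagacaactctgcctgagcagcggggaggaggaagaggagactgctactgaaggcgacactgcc

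The Cd244a window holds 2 GGAAA motifs, 1 TGANTCA and 1 TGNGGT. The Ctla4 window has 1 GGAAA and 1 TGNGGT, and the Pdcd1 window has 2 GGAAA, side by side near the start of the gene. The only other window of the set with TGANTCA is that of Havcr2, with 1. These matches describe letters in the windows, and binding was not measured.

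Pdcd1 encodes PD-1, the receptor for the ligands encoded by Cd274 and Pdcd1lg2. It read 5.69, 5.55 and 5.94 on the wild-type arrays and 6.94, 9.38 and 7.75 on the sanroque arrays. Every sanroque array was above every wild-type array, and sanroque replicate 2 was far above the others. The log2 fold was 2.30 ± 0.54 (SE; 95% confidence interval 1.02 to 3.57), and it was not called (adjusted p from limma = 0.0576). Without sanroque replicate 2 the fold was smaller, at 1.62 ± 0.24, and was called (adjusted p from limma = 0.0311). It was also called without sanroque replicate 1, at 2.84 ± 0.44 (adjusted p from limma = 0.0288). Leaving out any other array left it uncalled, with adjusted p-values from limma of 0.0810 to 0.188. Of all genes 1.69% were called higher without sanroque replicate 2.

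Tigit and Lag3 followed nearly the same course across the arrays. TIGIT binds CD155 in competition with the activating receptor CD226, and LAG-3 binds MHC class II. Tigit read 6.67, 6.50 and 6.76 on the wild-type arrays and 7.50, 9.51 and 7.58 on the sanroque arrays. Lag3 read 5.66, 5.64 and 5.74 on the wild-type arrays and 6.49, 8.15 and 6.64 on the sanroque arrays. In both genes sanroque replicates 1 and 3 lay within a narrow band above the wild-type arrays, and replicate 2 lay well above that band. Tigit had a log2 fold of 1.55 ± 0.50 (SE; adjusted p from limma = 0.132) and Lag3 of 1.41 ± 0.40 (SE; adjusted p from limma = 0.0959). Neither passed. Both were called without sanroque replicate 2, with log2 folds of 0.90 ± 0.10 (adjusted p from limma = 0.0134) and 0.88 ± 0.09 (adjusted p from limma = 0.00919). That fit called 1.69% of all genes higher. With any other single array left out neither was called. Adjusted p-values from limma were then 0.0969 to 0.323 in Tigit and 0.0821 to 0.268 in Lag3.

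Havcr2 encodes TIM-3, found on chronically stimulated T cells and on myeloid cells. Its values were 4.48, 4.62 and 4.89 on the wild-type arrays and 5.03, 6.44 and 5.68 on the sanroque arrays, so all but 1 array lay below the array median. The sanroque arrays were all higher, with sanroque replicate 1 only just above wild type replicate 3. The log2 fold was 1.05 ± 0.32 (SE; adjusted p from limma = 0.117). Without sanroque replicate 1 it was called, at 1.40 ± 0.23 (adjusted p from limma = 0.0377), and without sanroque replicate 2 it was 0.69 ± 0.21 and was not called (adjusted p from limma = 0.198). Leaving out any other array also left Havcr2 uncalled, with adjusted p-values from limma of 0.157 to 0.344.

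**Figure D2:**
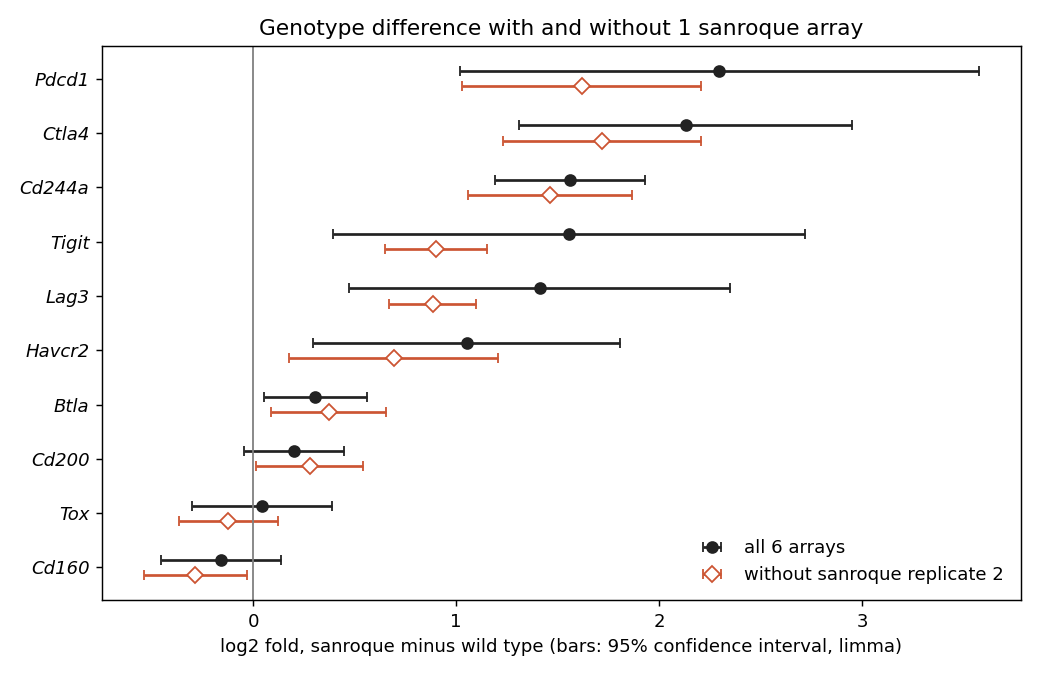
Log2 fold of sanroque over wild type (x axis) for each of the 10 genes with limma's 95% confidence interval, from all 6 arrays (black, filled) and without sanroque replicate 2 (orange, open). Leaving out that array lowered the folds of Pdcd1, Tigit and Lag3 to 1.62, 0.90 and 0.88 and narrowed their intervals, and it moved Cd244a from 1.56 to 1.46.

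Btla, Cd200, Cd160 and Tox had the smallest differences of the set. BTLA and CD160 both bind HVEM, the product of Tnfrsf14, and BTLA is also abundant on B cells. Btla read 9.44, 9.56 and 9.22 on the wild-type arrays and 9.74, 9.57 and 9.82 on the sanroque arrays, which just separated the genotypes. Its log2 fold of 0.31 ± 0.11 (SE; 95% confidence interval 0.05 to 0.56) was not called (adjusted p from limma = 0.171). Summed B cell markers were on average 2.78-fold higher in sanroque.

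Cd160 was the only one of the 10 with a lower mean in sanroque. It read 6.84, 6.90 and 6.64 on the wild-type arrays and 6.56, 6.89 and 6.46 on the sanroque arrays, with sanroque replicate 2 inside the wild-type range. The log2 fold was -0.16 ± 0.13 (SE; 95% confidence interval -0.46 to 0.14; adjusted p from limma = 0.645). Cd200, which encodes a ligand for an inhibitory receptor of myeloid cells and is also found on B cells, was below the array median on every array. It read 4.67, 4.91 and 4.65 on the wild-type arrays and 4.98, 4.79 and 5.06 on the sanroque arrays, and the genotypes overlapped. Its log2 fold was 0.20 ± 0.10 (SE; 95% confidence interval -0.04 to 0.45; adjusted p from limma = 0.387).

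Tox had nearly the same mean in both genotypes, 9.36 in wild type and 9.41 in sanroque. It read 9.49, 9.24 and 9.35 on the wild-type arrays and 9.21, 9.73 and 9.28 on the sanroque arrays. Sanroque replicate 2 was the highest of all 6 arrays, and the other sanroque arrays lay among or below the wild-type ones. The log2 fold was 0.04 ± 0.15 (SE; adjusted p from limma = 0.945), and its 95% confidence interval of -0.30 to 0.39 leaves out a 2-fold change in either direction. Without sanroque replicate 2 the log2 fold was -0.12 ± 0.10.

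Without sanroque replicate 1, the array with high Xist, 4 of the 10 genes were called higher, against 2.28% of all genes. These were Pdcd1 and Havcr2, as given above, with Ctla4 at a log2 fold of 2.51 (adjusted p from limma = 0.00789) and Cd244a at 1.63 (adjusted p from limma = 0.0112). Tigit then had a log2 fold of 1.90 (adjusted p from limma = 0.116) and Lag3 of 1.71 (adjusted p from limma = 0.0842). The log2 folds of Btla, Cd200, Tox and Cd160 were 0.29, 0.18, 0.14 and -0.12 there, and none of these 4 was called.

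Sanroque replicate 2 was the highest of the 3 sanroque arrays in 8 of the 10 genes and the lowest in Btla and Cd200. Among all genes it was the highest in 32%. It exceeded the mean of the other sanroque arrays by 2.03 in Pdcd1, 1.97 in Tigit, 1.58 in Lag3, 1.23 in Ctla4 and 1.08 in Havcr2 on the log2 scale. An excess of 1 or more was seen in 42 of all 19938 genes, or 0.211%, these 5 among them. Ordered by this excess, Pdcd1 ranked 3, Tigit 4, Lag3 10, Ctla4 22 and Havcr2 30 among all genes. The first ranks belonged to the Y-linked Eif2s3y and Uty, which were low on sanroque replicate 1. Chosen after their values were seen, the other genes down to rank 12 were Ctla2a, Ccl3, Il12rb2, Saa3, Gzmb, Fasl and Klrc1, with excesses of 1.88 to 1.54. Cd244a, at 0.30, ranked 607.

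The spread followed the same line. The SD over the sanroque arrays was 1.24 in Pdcd1, 1.14 in Tigit, 0.92 in Lag3, 0.79 in Ctla4 and 0.71 in Havcr2, against wild-type SDs of 0.05 to 0.21 in these 5 genes. By sanroque SD these genes ranked between 9 and 46 of 19938. Cd244a had SDs of 0.29 in wild type and 0.18 in sanroque.

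**Figure D3:**
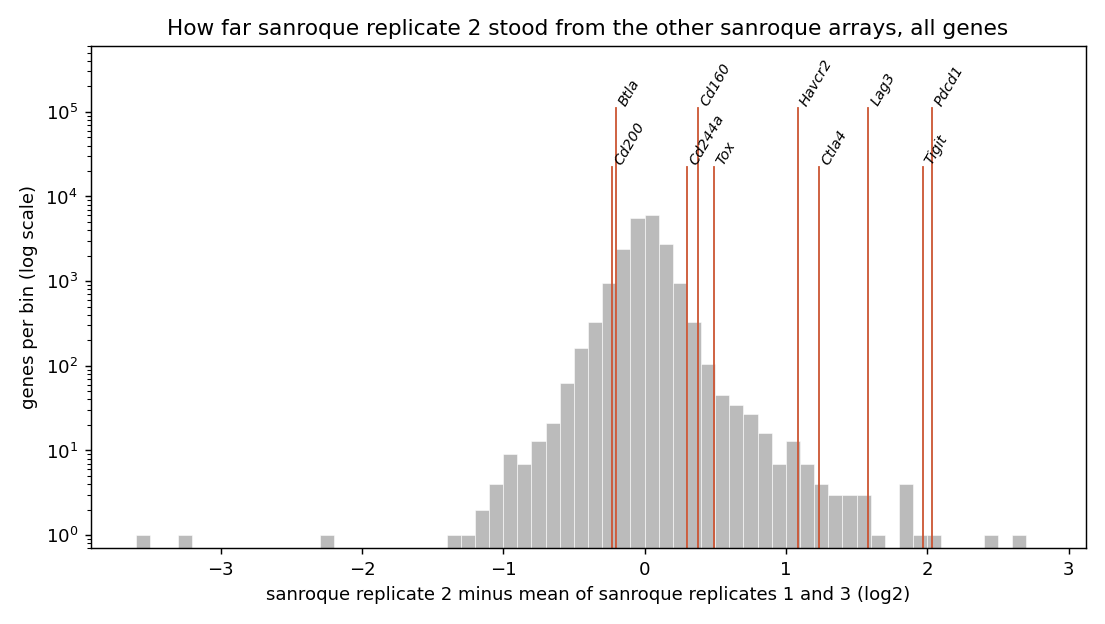
Number of genes per bin of 0.1 (y axis, log scale) by the excess of sanroque replicate 2 over the mean of sanroque replicates 1 and 3 (x axis, log2), with the 10 genes as orange lines. Pdcd1, Tigit, Lag3, Ctla4 and Havcr2 lie at 1.08 to 2.03 in the sparse right tail, and Btla and Cd200 lie just left of 0.

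Likeness of pattern was measured as the root mean square difference over the 6 arrays after each gene was set to its own wild-type mean. Closest to Ctla4 were Ccr2, a chemokine receptor gene (0.26), Chst11, a sulfotransferase gene (0.29), and Fasl, which encodes Fas ligand (0.30). Closest to Cd244a were Slc9a7, a sodium-proton exchanger gene (0.12), Irf8, a transcription factor gene of B and myeloid cells (0.13), and Map3k5, a stress kinase gene (0.19). Within the set, Tigit and Lag3 differed by 0.17 and Pdcd1 and Ctla4 by 0.34, while Btla and Cd200, whose folds are small, differed by 0.09. Outside the named rule, Fasl was closest to Pdcd1 (0.32). Hip1 was closest to Lag3 (0.15), followed by Tigit and then by Ifng, the interferon gamma gene (0.21).

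Ligands of the receptors were measured on the same sorted cells. Of 14 ligand genes 4 rose and 0 fell, with 5 higher and 0 lower at an unadjusted p below 0.05 by limma. Cd274, which encodes the PD-1 ligand PD-L1, read 8.30, 8.45 and 8.38 on the wild-type arrays and 9.27, 9.83 and 9.62 on the sanroque arrays. Its log2 fold was 1.20 ± 0.14 (SE; adjusted p from limma = 0.00587). Cd86, a CTLA-4 ligand gene, rose by 0.48 ± 0.08. Lgals3, which encodes galectin-3, a ligand of LAG-3, rose by 1.20 ± 0.22. Ceacam1, a reported TIM-3 partner that neutrophils also express, rose by 1.41 ± 0.30, with sanroque replicate 2 the lowest sanroque array. The median log2 fold of the ligand genes was 0.17. Cd274, Cd86, Lgals3 and Ceacam1 are also expressed by myeloid cells, whose summed markers were 7.31-fold higher.

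Among 6 genes listed as activating partners, Icos rose and Cd96 fell. The place of Cd96 in this list does not state that its product activates T cells. Icos, a CD28 family costimulator whose mRNA is a known Roquin target, had a log2 fold of 0.81 ± 0.12. Cd96, whose product shares the ligand CD155 with TIGIT, fell by 0.39 (adjusted p from limma = 0.0181). Wild-type arrays read 11.36, 11.34 and 11.30 and sanroque arrays 10.99, 10.92 and 10.94, without overlap. The call of Cd96 was lost on leaving out sanroque replicate 2 and on leaving out either wild type replicate 1 or 2.

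None of the 12 measured genes of the signalling list passed by limma, with 3 higher and 0 lower at an unadjusted p below 0.05. The smallest p-values were those of Inpp5d, which encodes the phosphatase SHIP-1 (log2 fold 0.51 ± 0.13), and Ptpn11, which encodes SHP-2 (0.38 ± 0.11). Of 6 TOX and TIM relatives 0 passed by limma and 0 had an unadjusted p below 0.05. Timd4 and Tox4 had the smallest p-values there, with log2 folds of 0.12 ± 0.08 and 0.37 ± 0.26.

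Of 13 other inhibitory receptor genes, a list that leaves out Cd96 (called lower, as given above), 7 rose and 0 fell by limma. At an unadjusted p below 0.05 by limma 8 were higher and 0 lower. Several of them are also NK or myeloid genes, and the summed markers of NK and myeloid cells were 2.22-fold and 7.31-fold higher on the same arrays. Eomes, which these CD8+ cells may express, weighs most in that NK sum. The largest differences were those of the lectin receptor genes Klrg1 (log2 fold 4.33 ± 0.29) and Klrc1 (3.99 ± 0.45). Entpd1, which encodes the ectonucleotidase CD39, rose by 3.30 ± 0.29 and Lilrb4a, also a myeloid gene, by 2.81 ± 0.30. Of the 8 SLAM family genes, relatives of Cd244a, Slamf7 (2.60 ± 0.26) and Slamf8 (0.55 ± 0.09) rose. Cd48, the ligand gene of the Cd244a product, stood at a log2 fold of -0.30, which did not pass.

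Of 15 transcription factor genes linked to exhaustion 7 rose and 0 fell, with 11 higher and 1 lower at an unadjusted p below 0.05. The lower one was Nr4a3 (log2 fold -0.19), Batf (0.32) did not pass, and Tcf7, also listed, was not among the genes measured. Tbx21, which encodes T-bet, rose by 2.46 ± 0.24, Prdm1, which encodes Blimp-1, by 1.30 ± 0.27, Eomes by 1.29 ± 0.17 and Irf4 by 1.09 ± 0.13. Prdm1 had an excess of 1.03 on sanroque replicate 2, on the same side as Pdcd1 and Tigit. Tbx21 had 0.73 and Irf4 0.05. Over all 73 related genes, each counted once, 21 were higher and 1 lower by limma, with a median log2 fold of 0.21, against 3.26% higher and 2.51% lower among all genes. Irf4 and Prdm1 are also plasma cell genes, and the summed plasma cell markers were 2.96-fold higher. Of the related genes 11 were called higher without wild type replicate 1, against 0.983% of all genes. Without wild type replicate 2 the count was 13, against 2% of all genes. Without sanroque replicate 1, where 2.28% of all genes were called higher, 14 of the 21 were still called. The other 7 (Cd86, Ceacam1, Ikzf2, Lgals3, Nr4a1, Prdm1 and Slamf8) were not. All 21 kept a higher mean in sanroque there, and Cd96 was still called lower.

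**Figure D4:**
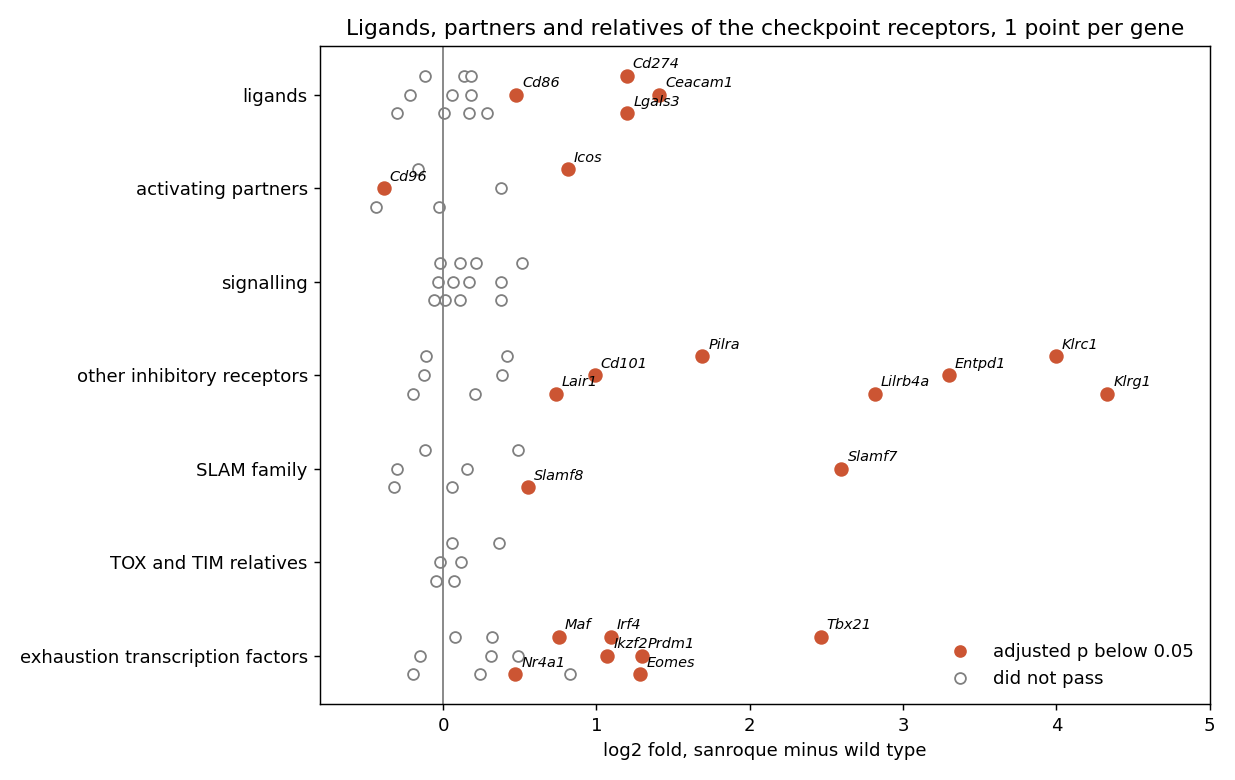
Log2 fold of sanroque over wild type (x axis) for each gene of the 7 related lists (rows), with orange filled points for genes at a limma adjusted p below 0.05 and open points for the rest. The other inhibitory receptors and the transcription factors hold 14 of the filled points, Cd96 is the filled point left of 0, and the signalling list and the TOX and TIM relatives hold 0.

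Several checkpoint genes are also expressed by cells outside the gate, and the markers of such cells were higher on the sanroque arrays. In the list of 15 myeloid genes (monocyte, macrophage and neutrophil) 13 rose and 0 fell. Their summed linear intensity was 883 to 1530 in wild type and 6688 to 9872 in sanroque. Of 12 B cell genes 7 rose, with sums of 2215 to 5580 and 8447 to 10427. NK cell genes rose in 4 of 8 cases, with sums of 499 to 599 and 1077 to 1349. These were Eomes, Fcgr3, Klre1 and Tyrobp, while Klrb1c was separated higher (0.94) but not called. Ncr1, a defining NK cell gene, had a log2 fold of -0.12 and lay below the array median on every array, as did Klre1, Klra8 and Klri2. Of 6 plasma cell genes 4 rose (526 to 830 and 1642 to 2223). Of 10 regulatory and CD4 T cell genes 3 rose and 1 fell, with sums of 1275 to 1286 and 1313 to 1453. Cd4 had a log2 fold of 0.95 ± 0.25 and Foxp3, which defines regulatory T cells, of 0.38 ± 0.11, and neither passed.

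Other lists held 0 or 1 call each. Of 9 dendritic cell genes 1 rose (3202 to 3861 and 3121 to 3809), and of 5 gamma delta T cell genes 1 rose (240 to 281 and 327 to 355, without overlap). Ccr9, Cst3 and Bst2 weigh most in the dendritic cell sum, with log2 folds of -0.64, 0.36 and -0.09. The dendritic cell gene that rose was Itgax (log2 fold 1.96), with an excess of 1.12 on sanroque replicate 2 (rank 27 among all genes). The riser among the gamma delta T cell genes was Blk (log2 fold 1.27), which is also in the B cell list. Il17a, Il23r, Sox13 and Zbtb16 had log2 folds between -0.02 and 0.09. The 4 erythroid and platelet genes held 0 calls by limma and 0 at an unadjusted p below 0.05 (129 to 145 and 129 to 149). The 9 stress and dissociation genes held 0 calls by limma, with 3 higher and 1 lower at an unadjusted p below 0.05 (12451 to 15988 and 13459 to 20272). Hspa8 and Hsp90aa1 weigh most in that sum. Jun read 8.05, 9.60 and 8.38 on sanroque replicates 1 to 3, an excess of 1.38 on replicate 2 (rank 16 among all genes). The excess was 0.73 in Dusp1 and 0.52 in Fos, and the rest of the list lay between -0.42 and 0.32. Of 7 CD8 T cell genes 0 rose and 1 fell (38255 to 39998 and 35285 to 36872).

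These lists did not follow sanroque replicate 2 alike. Summed B cell intensity on sanroque replicates 1 to 3 was 10028, 8447 and 10427, lowest on replicate 2. Myeloid sums were 9872, 7778 and 6688, and regulatory and CD4 T cell sums were 1313, 1453 and 1439. NK cell sums were 1131, 1349 and 1077, highest on replicate 2, and that list holds Eomes, which these CD8+ cells may express. Over the checkpoint genes themselves the sums were 2247, 4047 and 2539, against 1716 to 1873 in wild type. Tox and Btla, which were not called, weigh most in these checkpoint sums. Foxp3 read 6.31, 6.38 and 6.70 and Cd4 read 6.64, 6.55 and 7.49. A score of B cell and myeloid markers separated the genotypes, so with it as a covariate limma called 0 of all genes, with 1519 higher and 1069 lower at an unadjusted p below 0.05. The calls of Ctla4 and Cd244a were lost with all others, and the part of other cell types in the differences cannot be told apart from the genotype in that fit.

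**Figure D5:**
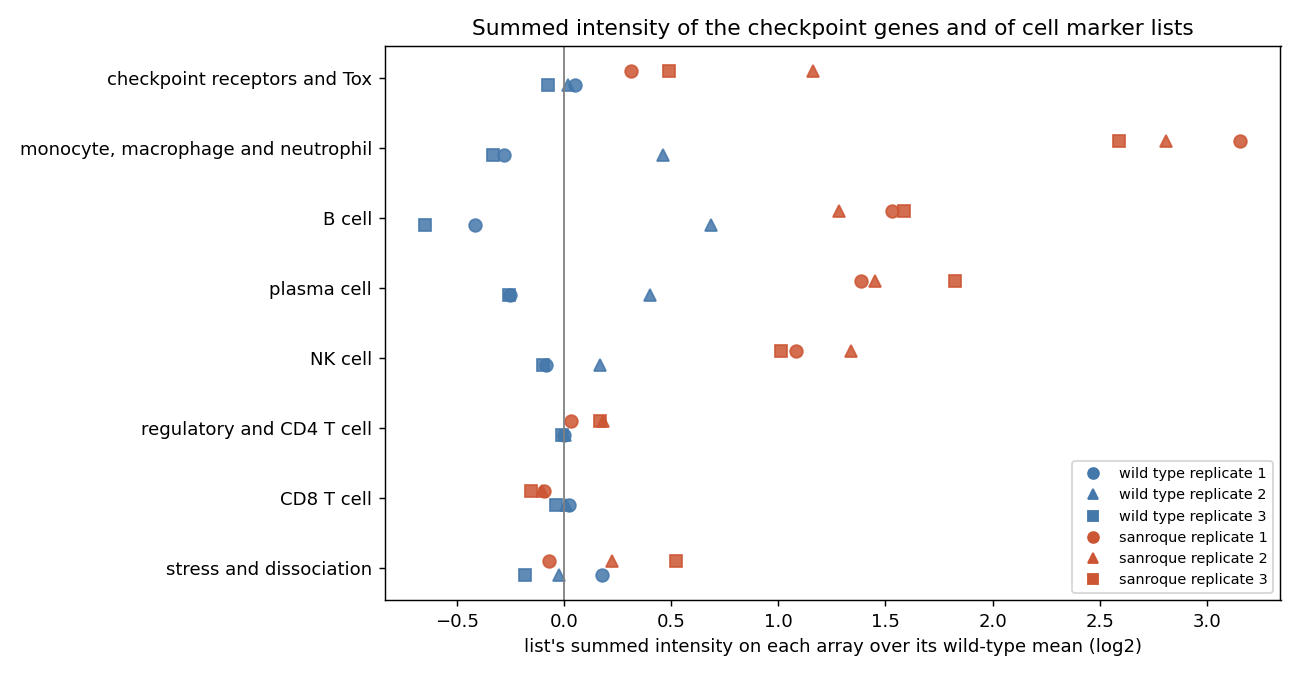
Summed linear intensity of the checkpoint genes and of 7 marker lists (rows) on each array, as the log2 ratio to the list's wild-type mean (x axis), with wild type in blue, sanroque in orange and marker shapes for replicate numbers. Sanroque replicate 2 is at 1.16 for the checkpoint genes, against 0.32 and 0.49 on the other sanroque arrays, and it is the lowest sanroque array for B cell genes. Tox and Btla weigh most in the checkpoint sum.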

How the data were processed

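Biotin-labelled cRNA was hybridised, per the labels' protocols. The table the authors deposited holds linear intensity values between 9.56 and 31996, with 1 value for each probe set on each array. The submitters' processing notes name Partek without its role. How background was corrected, probes were summarized and arrays were normalized is not given in these sources. Of 35399 probe sets, 21789 had exactly 1 gene symbol, 1621 several and 11989 none listed. Symbols were updated through the GRCm38.p6 gene table (19856 of 19938 genes matched), and the probe set with the highest mean log2 value was kept per gene. Log2 values were taken without renormalizing the arrays and fitted with limma 3.58.1 (lmFit, eBayes) in R 4.3.3, sanroque minus wild type, without a filter on dim genes. Printed levels are log2 intensities, errors of folds are SEs of the moderated fit, and p-values were adjusted over all genes (Benjamini-Hochberg). The number of arrays limits the precision, and an exact permutation test of 3 against 3 arrays cannot go below 0.1. Genes named outside the set of 10 were, per related list, up to 4 called genes with the largest fold or else the 2 smallest p-values, plus markers. A few other genes were named after their values were seen. Members and lists were chosen with earlier results of these data known. The fit was tested on simulated data. Alternatives covered probe sets, dim genes, normalization, values added before log2, variance models, array weights, the replicate block, a fold minimum, a cell score and leaving out arrays. Plots were made in Python 3.11.15 with matplotlib 3.10.9.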

Additional observations from a re-analysis of the deposited data

How the results depend on the processing

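The count of 2 checkpoint genes called higher was 4 with dim genes left out (below log2 6 on more than 3 arrays, which also drops Havcr2 and Cd200, while Pdcd1, Lag3, Ctla4 and Cd244a stay in through their sanroque arrays) and 4 with a variance trend, with Pdcd1 and Lag3 added both times. The share of all genes called higher, 3.26% in the fit reported, was 6.26% and 3.68% there. The count was 6 with array weights (10% of all genes), 1 with 64 added before log2 (1.81%), 0 with a fold minimum of 1.5 (0.376%) and 0 with the B cell and myeloid marker score as covariate (0%). Leaving out 1 array gave 1 to 5 (0.983% to 2.94% of all genes), and 0 were called lower under every alternative run. Related genes called higher numbered 21 in the fit reported, 36 with array weights and 11 with the replicate block (1.36% of all genes). They numbered 6 with the fold minimum, 0 with the cell score, and 11 to 20 with 1 array left out. Without sanroque replicate 1 and wild type replicate 2 together they numbered 12 (1.64%). Related genes called lower numbered 1 in the fit reported and 6 with array weights, where 13.7% of all genes were called lower. They numbered 0 with the replicate block (0.15%), the fold minimum (0.00502%), the cell score (0%) and both arrays left out together (0.135%). With 1 array left out 0 or 1 was called lower (0.11% to 3.65%). The log2 fold of Tox lay between -0.12 and 0.14 with 1 array left out, below 0 without wild type replicate 2 (-0.02) and when sanroque replicate 2 was dropped (-0.12), in neither case called. With the cell score, where nothing was called, Btla was -0.30, Cd200 -0.40, Cd160 -0.40, Tox 0.52, Cd244a 0.77, Havcr2 1.71, Lag3 2.13, Ctla4 2.30, Tigit 2.74 and Pdcd1 3.62. The causes were not tested.

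Arrays with the same replicate number shared only that number. The correlation of their deviations from the group means over all genes was -0.05, -0.16 and -0.36 for numbers 1 to 3. With the replicate block 2 checkpoint genes were called higher and 0 lower, as without it. Cd200 lay below the array median on every array and Havcr2 on all but 1, so background may weigh most in these genes. The wild-type values of Ctla4 and Lag3 all lay below it too. So did those of Pdcd1 except on wild type replicate 3 and those of Cd244a except on wild type replicate 2.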
